A study of Drosophila melanogaster with 40 samples.

Results

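Whole-body transcripts of nonexercised males carrying the A31P allele of feline MYBPC3 were compared with those of the attP2 control line. The members were the libraries whose titles name A31P or attP2 males of 1 week of age that were not exercised, which gave 2 A31P and 2 attP2 libraries, 4 of the 40 samples in the series. A31P males expressed the A31P cDNA of feline MYBPC3 from a UAS construct that had been integrated at the attP2 site, under the cardiac driver TinCΔ4-Gal4. The attP2 males carried the empty site and the same driver, so the driver was shared by all groups. The WT males (unaltered feline MYBPC3) and R820W males (the R820W allele, also linked to disease in cats) carried their constructs at the same site, and their 4 nonexercised libraries were in the fit as well. The study describes all lines as co-isogenic, with 1 line per allele. Each library was made from rRNA-depleted RNA of 10 pooled whole flies, whereas the transgene was driven in the heart, a small part of the body. The replicates are described as separate biological pools. In whole-body RNA, fewer cells of a type and less RNA per cell cannot be told apart. Exercised males (1 h of induced climbing) and nonexercised females of the A31P and attP2 lines served for comparison.

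MYBPC3 encodes cardiac myosin-binding protein C, which sits on the thick filament of vertebrate heart muscle, and variants of the gene are a common cause of hypertrophic cardiomyopathy in cats and people. The fly heart is a contractile tube of sarcomeric muscle, and the Gal4/UAS system expresses a foreign cDNA wherever the driver is active. Muscle relies on small heat shock proteins and Hsp70 to hold and refold damaged proteins, and antimicrobial peptides, cytochrome P450s and gut proteases report on infection, detoxification and feeding in the whole fly.

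The 4 compared libraries held 18493813 to 21690413 counts, of which 8.33% to 10.7% were ribosomal and 13.2% to 18.2% were 7SL RNA. The 7SL share was highest in attP2 replicate 2. The male RNAs roX1 and roX2 summed to 1595 and 1599 CPM (read counts scaled to the TMM-adjusted library size) in A31P males, against 1710.1 and 1627 CPM in attP2 males. Of the heart markers tin, Hand, prc and mid, tin was at 0.0454 and 0.137 CPM in A31P males and at 0.19 and 0.0577 CPM in attP2 males, and the 4 together reached at most 8.21 CPM in any of these libraries. The part of the heart in any result was not tested. The white gene, whose w+ copy marks the transgene vector, had 16.1 and 16.6 CPM in A31P males, against 7.79 and 11.1 CPM in attP2 males (Log2FC = 0.80, SE 0.17, adjusted p = 0.054), higher in both A31P libraries but short of the threshold. The transgene's own transcript was not analysed here. The attP2 replicate 1 library stood apart from the other 3. Its 9 female markers (yolk and eggshell genes) summed to 119 CPM, against 10.6 and 11.7 CPM in A31P males and 13.0 CPM in attP2 replicate 2. The 119 CPM are 0.785% of the mean of nonexercised attP2 females. It also held high levels of antimicrobial peptide transcripts, described with that gene list. Calls that were lost without this library are named with the genes below.

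Of 13706 genes tested, 147 were significantly differentially expressed between A31P and attP2 males (1.07%), with 69 upregulated (0.503%) and 78 downregulated (0.569%) in A31P. A gene was called at an adjusted p under 0.05 (edgeR quasi-likelihood test, Benjamini-Hochberg adjustment over all genes tested) with a Log2FC over 0.5 or under -0.5, and 2097 genes had an unadjusted p under 0.05. The median size of the change among called genes was 0.86 on the log2 scale, and 62 genes changed by over 1 on that scale, 27 of them upregulated and 35 downregulated. In all 147, both A31P libraries lay beyond both attP2 libraries, whereas 45.3% of all tested genes showed such a separation. The calls were made on these same 4 libraries, so the separation is no separate support for them. The count depended on single libraries. It was 35 without A31P replicate 1, 28 without A31P replicate 2, 99 without attP2 replicate 1 and 1124 without attP2 replicate 2, of which 816 were upregulated and 308 downregulated. Of the 147 genes, 81 remained called without attP2 replicate 1 and 142 without attP2 replicate 2, and 23 were called in every one of the 11 alternative fits, 11 of them upregulated and 12 downregulated. None of the 147 changed direction in any of these fits, which their separation in the 4 libraries made nearly certain in advance.

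**Figure D1:**
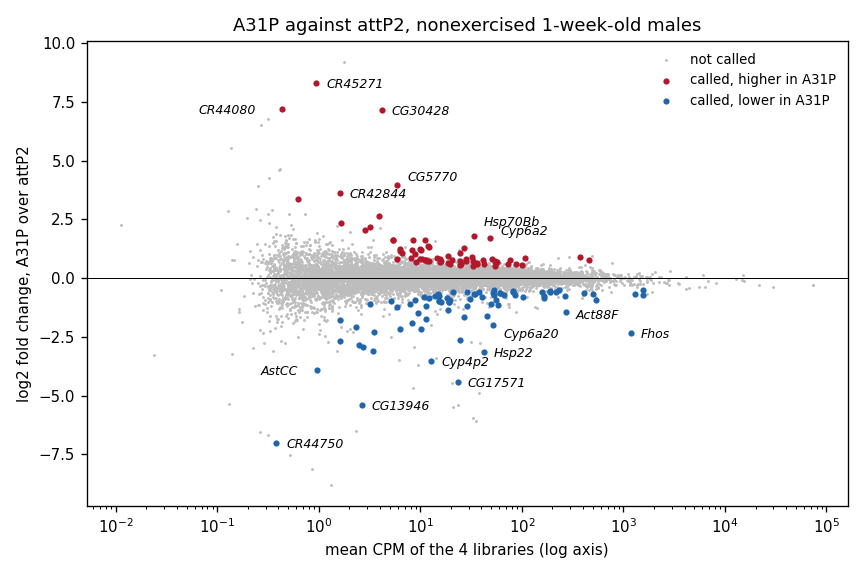
Log2 fold change of A31P over attP2 for each of the 13706 tested genes, against its mean CPM over the 4 libraries (log axis). Points in red (69) and blue (78) are genes called higher and lower in A31P, and grey points were not called. The calls reach from under 1 CPM (CR44750, CR44080) to over the level of Fhos.

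Sarcomere genes were mostly lower in A31P males. All 35 genes on the list of contractile and Z-disc proteins were tested, 30 of them had lower and 5 higher values in A31P, and 8 were called, 7 downregulated and 1 upregulated. Over all tested genes, 6624 of 13706 were lower and 1.07% were called. Their median Log2FC was -0.29, against 0.01 over all tested genes. Fhos, a formin that organizes thin filaments of flight muscle, had 396 and 384 CPM in A31P males, against 1972 and 2000.1 CPM in attP2 males (Log2FC = -2.35, SE 0.19, adjusted p = 0.000357). The groups were far apart relative to their replicate spread, which was 8.57 CPM in A31P and 19.7 CPM in attP2 (SD, n = 2 each). Act88F, the actin of the indirect flight muscles, had 136 and 154 CPM in A31P males, against 397 and 398 CPM in attP2 males (Log2FC = -1.46, SE 0.23, adjusted p = 0.0181). Act57B, another muscle actin, had 354 and 382 CPM in A31P males, against 738 and 652 CPM in attP2 males (Log2FC = -0.92, SE 0.15, adjusted p = 0.0195). Low levels of these actins were not particular to A31P. In WT males Act88F had 56.5 and 54.1 CPM and Act57B had 314 and 257 CPM, below both A31P libraries. In R820W males they had 308 and 586 CPM and 486 and 644 CPM. The remaining downregulated members changed less. Zasp52, a Z-disc scaffold, had 387 and 385 CPM in A31P males, against 635 and 603 CPM in attP2 males (Log2FC = -0.68, SE 0.10, adjusted p = 0.013). TpnC41C, a calcium-binding troponin C, had 125 and 119.6 CPM in A31P males, against 205 and 209.6 CPM in attP2 males (Log2FC = -0.76, SE 0.10, adjusted p = 0.0077). Mlp60A (muscle LIM protein) and kon, a transmembrane protein of muscle attachment, had Log2FC values of -0.56 and -0.80 (adjusted p = 0.0346 and 0.0333), and with the replicate number as a block the value for kon was 0.0503. Zasp67, a Z-disc protein of flight muscle, went the other way, with 7.3 and 8.86 CPM in A31P males, against 1.9 and 3.46 CPM in attP2 males (Log2FC = 1.61, SE 0.28, adjusted p = 0.0302). Among the members with the highest CPM, Mhc (myosin heavy chain) had 3556 and 3507 CPM in A31P males, against 5175 and 4454 CPM in attP2 males and sls (the titin-like sallimus) had 5725 and 5381 CPM in A31P males, against 7903 and 6552 CPM in attP2 males. Neither passed the test (Log2FC = -0.45 and -0.38, adjusted p = 0.123 and 0.162). Fhos kept its call when any of the 4 libraries was left out. Without attP2 replicate 1, 4 of the 8 were no longer called, namely Act57B, Mlp60A, Zasp67 and kon (adjusted p = 0.0526 to 0.111, Log2FC = -0.82, -0.57, 1.22 and -0.53), and when either A31P library was left out Fhos alone remained.

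Outside the list, Scp1, a sarcoplasmic calcium-binding protein, had 1168 and 1200.3 CPM in A31P males, against 2015 and 1889 CPM in attP2 males (Log2FC = -0.72, SE 0.11, adjusted p = 0.013). Among 29 tested heart genes the only call was Ndae1, an anion exchanger, with 63.1 and 66.2 CPM in A31P males, against 104 and 109 CPM in attP2 males (Log2FC = -0.72, SE 0.08, adjusted p = 0.0026). That list had a median Log2FC of -0.08, with 10 members higher and 19 lower in A31P, where 6624 of all 13706 tested genes were lower and 1.07% were called. Its member Ca-P60A, the calcium pump of the sarcoplasmic reticulum, had 2481 and 2556 CPM in A31P males, against 3285 and 2911 CPM in attP2 males and was not called (Log2FC = -0.30, SE 0.11, adjusted p = 0.235). Scp1 and Ndae1 lost their calls when either A31P library was left out. Their Log2FC values were -0.70 and -0.69 without A31P replicate 1, and -0.74 and -0.76 without A31P replicate 2.

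Heat shock genes moved in both directions. Of 34 members tested, 3 were downregulated and 1 was upregulated, 18 were higher and 16 lower, and the median Log2FC was 0.04. The share called over all tested genes was 1.07%. Hsp22, a small chaperone of mitochondria, had 6.9 and 10.1 CPM in A31P males, against 54.1 and 97.1 CPM in attP2 males (Log2FC = -3.15, SE 0.27, adjusted p = 0.000556). Both attP2 libraries exceeded both A31P libraries by over 40 CPM, although they differed from each other. CG14207, a small heat shock protein, had 115 and 121 CPM in A31P males, against 223 and 206 CPM in attP2 males (Log2FC = -0.86, SE 0.09, adjusted p = 0.00165). The Hsp70 copies at 87C are near-identical, so reads may be split between them and values of single copies are uncertain. Hsp70Bb had 49.1 and 54.4 CPM in A31P males, against 17.7 and 12.4 CPM in attP2 males (Log2FC = 1.77, SE 0.15, adjusted p = 0.000556), and it lies on arm 3R at 12505793 to 12508139. Its neighbour Hsp70Bc, at 12509076 to 12511461, changed in the opposite direction, with 0.862 and 0.366 CPM in A31P males, against 5.13 and 3.69 CPM in attP2 males (Log2FC = -2.84, SE 0.36, adjusted p = 0.00489). Hsp70Bbb, which precedes both at 12502510 to 12504856, had 0.0907 and 0 CPM in A31P males, against 7.45 and 1.73 CPM in attP2 males and was not called (adjusted p = 0.065). Its A31P libraries held 2 counts together and its attP2 libraries 187 counts, a ratio of 107 (95% exact interval 29.2 to 889, counting error only). Hsp70Ab had 8.12 and 7.13 CPM in A31P males, against 28.4 and 11.8 CPM in attP2 males (Log2FC = -1.41, SE 0.34, adjusted p = 0.0866), while Hsp70Aa and Hsp70Ba stayed under 2 CPM in all 4 libraries. The constitutive chaperones Hsp83 and Hsc70-4 had Log2FC values of 0.04 and 0.06 (adjusted p = 0.894 and 0.846). Hsp22 and Hsp70Bb kept their calls without any 1 of the 4 libraries. CG14207 missed the threshold without A31P replicate 1 (adjusted p = 0.0554) and Hsp70Bc without A31P replicate 2 (adjusted p = 0.0651).

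**Figure D2:**
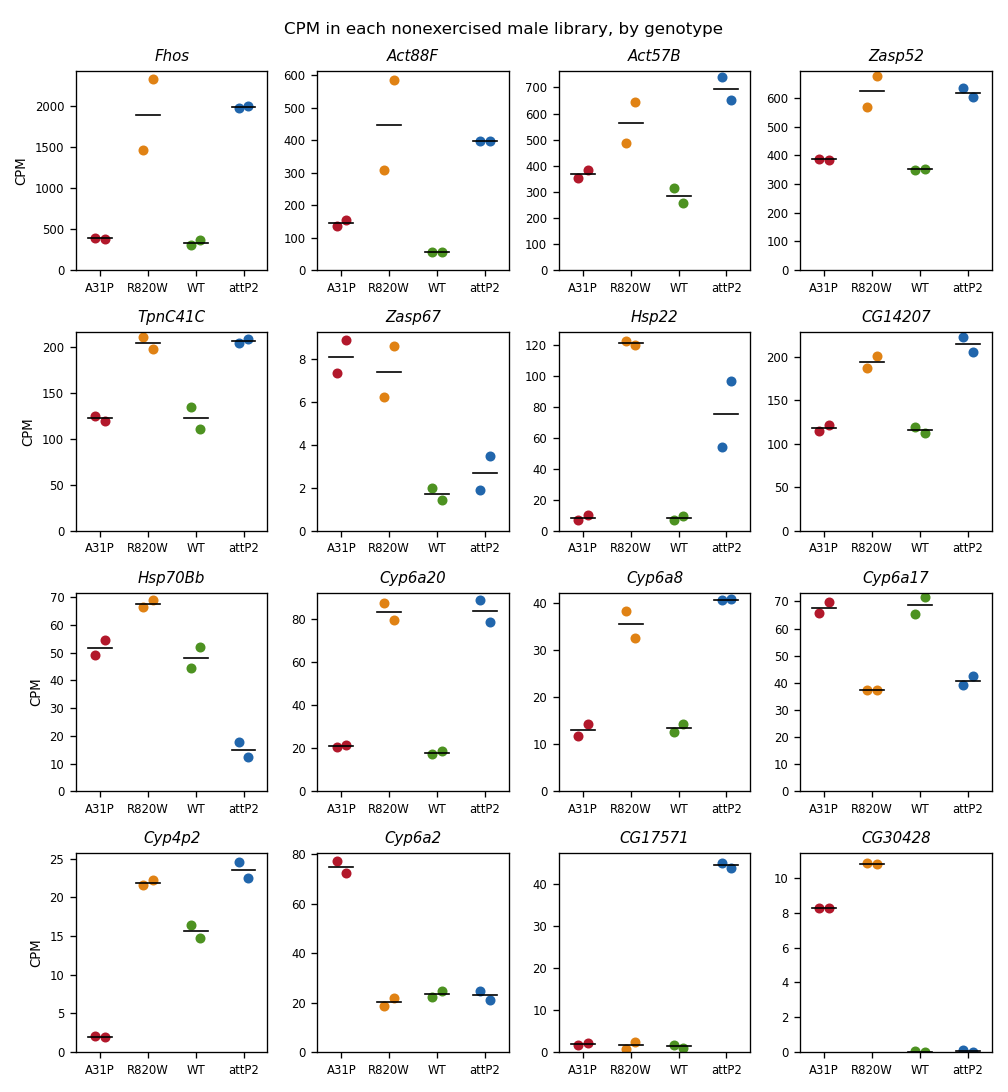
CPM of 16 genes in each nonexercised male library, 2 libraries per genotype, with the mean as a bar and each vertical axis starting at 0. In Fhos, Zasp52, Hsp22 and Cyp6a20 the A31P libraries lie beside the WT libraries and below those of R820W and attP2, whereas Cyp4p2 and Cyp6a2 set the A31P libraries apart from all others.

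Cytochrome P450 genes, monooxygenases of detoxification and hormone metabolism, gave 8 calls among 79 tested members, 3 upregulated and 5 downregulated, against 1.07% of all tested genes called, with a median Log2FC of -0.04. Cyp4p2 had the smallest adjusted p of all genes tested, with 2.04 and 1.96 CPM in A31P males, against 24.5 and 22.4 CPM in attP2 males (Log2FC = -3.55, SE 0.14, adjusted p = 3.87e-06). Cyp6a2, an enzyme known from insecticide resistance, was higher, with 77.4 and 72.3 CPM in A31P males, against 24.8 and 21 CPM in attP2 males (Log2FC = 1.71, SE 0.12, adjusted p = 0.000116). Within each group the libraries differed far less than the groups did. Of the called members, 4 lie side by side on arm 2R between 14873953 and 14889010 (release 6 of the genome), a span of 15.06 kb with 6 tested genes. Cyp6a20, which has been linked to male aggression, had 20.6 and 21.7 CPM in A31P males, against 88.4 and 78.5 CPM in attP2 males (Log2FC = -1.98, SE 0.10, adjusted p = 1.99e-05). Cyp6a8 had 11.8 and 14.3 CPM in A31P males, against 40.7 and 40.8 CPM in attP2 males (Log2FC = -1.64, SE 0.13, adjusted p = 0.00033), and Cyp6a23 had 36.4 and 39.3 CPM in A31P males, against 67.6 and 76.9 CPM in attP2 males (Log2FC = -0.93, SE 0.10, adjusted p = 0.00236). Cyp6a17, at the start of the span and next to Cyp6a23, changed in the other direction, with 65.7 and 69.7 CPM in A31P males, against 39 and 42.4 CPM in attP2 males (Log2FC = 0.73, SE 0.09, adjusted p = 0.00454). The remaining members of the span, Cyp6a9 and Cyp6a21, were not called (Log2FC = -0.50 and -0.10, adjusted p = 0.0768 and 0.765). Elsewhere, Cyp4ac3 was downregulated (Log2FC = -0.79, adjusted p = 0.0226) and Cyp310a1 upregulated (Log2FC = 1.21, adjusted p = 0.0297). The member with the highest CPM, Cyp4g1 of cuticular hydrocarbon synthesis, had 16064 and 15738 CPM in A31P males, against 13928 and 14851 CPM in attP2 males and was not called (adjusted p = 0.549). Without attP2 replicate 1, 7 of the 8 remained called and Cyp4ac3 did not (adjusted p = 0.0735). Cyp310a1 and Cyp4ac3 lost their calls when either A31P library was left out, Cyp6a23 without A31P replicate 1 (adjusted p = 0.0601) and Cyp6a17 without A31P replicate 2 (adjusted p = 0.0992). In other detoxification families, 1 of 31 UDP-glycosyltransferases was called, CG17322, with 10.3 and 10.4 CPM in A31P males, against 20.3 and 19.9 CPM in attP2 males (Log2FC = -0.95, SE 0.12, adjusted p = 0.00451), and none of 33 glutathione transferases was.

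Digestive proteases gave 5 calls among 41 tested, 4 downregulated and 1 upregulated, against 1.07% of all tested genes called. CG17571, a trypsin-like serine protease, had 1.81 and 2.28 CPM in A31P males, against 45.1 and 43.8 CPM in attP2 males (Log2FC = -4.43, SE 0.33, adjusted p = 0.000187). The libraries of each group were alike, and both attP2 libraries lay far above both A31P libraries. The trypsin gammaTry had 3.99 and 5.99 CPM in A31P males, against 16 and 11.8 CPM in attP2 males (Log2FC = -1.48, SE 0.27, adjusted p = 0.0346). The chymotrypsin-like Jon99Cii had 959 and 1038 CPM in A31P males, against 1589 and 1616 CPM in attP2 males (Log2FC = -0.68, SE 0.14, adjusted p = 0.0486), and Jon65Ai had a Log2FC of -0.91 (adjusted p = 0.0277). Phae2 was upregulated, with 28 and 32.9 CPM in A31P males, against 17.8 and 18.7 CPM in attP2 males (Log2FC = 0.74, SE 0.12, adjusted p = 0.0204). Only CG17571 and Jon65Ai remained called without attP2 replicate 1, with adjusted p = 0.126, 0.0993 and 0.0703 for gammaTry, Jon99Cii and Phae2, and CG17571 alone remained when either A31P library was left out. Among 31 genes of carbohydrate digestion, the maltase Mal-A4 was called, with 34.1 and 31.8 CPM in A31P males, against 14.7 and 16.9 CPM in attP2 males (Log2FC = 1.06, SE 0.18, adjusted p = 0.028). That list had a median Log2FC of 0.28, with 20 members higher and 11 lower in A31P, and the median was 0.08 without attP2 replicate 1. Mal-A4 was not called without that library (Log2FC = 0.96, adjusted p = 0.111), and 4 members were called with the replicate block.

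The largest called changes were in genes that were nearly silent in 1 of the groups. AstCC, described with them, changed less than CG17571 and CG5770, which were measured in both groups. CR45271, an antisense RNA, had 1.54 and 2.24 CPM in A31P males, against 0 and 0 CPM in attP2 males, so it was at least 12.1-fold higher against a floor of 3 counts per library. CR44080 had 0.862 and 0.868 CPM in A31P males, against 0 and 0 CPM in attP2 males, at least 5.54-fold higher on the same floor. CR44750 was absent from both A31P libraries and had 0.665 and 0.865 CPM in attP2 males, at least 5.6-fold lower in A31P (adjusted p = 0.0309, 0.0522 with the replicate block and 0.0639 without attP2 replicate 1). These 3 are noncoding RNAs of low level. CG30428, a gene of the same on-off kind, had 8.3 and 8.27 CPM in A31P males, against 0.0949 and 0 CPM in attP2 males, that is 364 counts in A31P and 2 counts in attP2 libraries (ratio 159, 95% exact interval 43.7 to 1319). CG13946 had 0.0907 and 0.137 CPM in A31P males, against 3.51 and 6.8 CPM in attP2 males, with 5 counts in A31P and 192 counts in attP2 libraries (attP2 over A31P ratio 43.9, interval 18.5 to 137). AstCC, which encodes an allatostatin-type neuropeptide, had 0.0907 and 0.137 CPM in A31P males, against 1.85 and 1.79 CPM in attP2 males, with 5 counts in A31P and 70 counts in attP2 libraries (attP2 over A31P ratio 16, interval 6.54 to 50.8). All 6 were called (adjusted p = 0.00449, 0.01, 0.0309, 4.06e-05, 0.00152 and 0.006). CR44080, CR44750 and AstCC lost their calls when either A31P library was left out. The Log2FC of AstCC was -3.67 without A31P replicate 1 and -4.24 without A31P replicate 2. Low AstCC was not particular to A31P, with 0.0894 and 0.105 CPM in WT males and 0.188 and 0.0869 CPM in R820W males. Among genes measured in both groups, CG5770 had 11.6 and 10.8 CPM in A31P males, against 0.665 and 0.749 CPM in attP2 males (Log2FC = 3.98, SE 0.23, adjusted p = 4.01e-05), and CG11034 had 6.49 and 7.31 CPM in A31P males, against 39.8 and 44.9 CPM in attP2 males (Log2FC = -2.62, SE 0.16, adjusted p = 4.9e-05). Oatp58Db, an organic anion transporter, had 4.04 and 3.29 CPM in A31P males, against 16.9 and 16.3 CPM in attP2 males (Log2FC = -2.17, SE 0.15, adjusted p = 0.000116). The pepsinogen-like protease gene pcl had 12.8 and 13.1 CPM in A31P males, against 4.61 and 3.75 CPM in attP2 males (Log2FC = 1.62, SE 0.16, adjusted p = 0.00119). CG5770, CG11034, Oatp58Db and pcl kept their calls without any 1 of the 4 libraries.

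The called genes were counted on each chromosome arm, with no test of their spread. Arm 2L held 54 of the 147 (36.7%) and 19.3% of the tested genes, and arm 2R held 41 (27.9%) and 20.3% of the tested genes. Arm 3L held 19 (12.9%) and 19.3% of the tested genes, arm 3R held 23 (15.6%) and 24.7% of the tested genes, and the X chromosome held 9 (6.12%) and 15.4% of the tested genes. The attP2 site itself is on arm 3L. Within 10 kb of each other lay 25 called genes in 11 runs. No share over all tested genes was set beside this count, so whether called genes cluster was not tested. CG42305 and CG17325, both higher in A31P (Log2FC = 0.60 and 0.66), have the same annotated bounds on 2L, 18812648 to 18813941, so their counts describe 1 locus, and CG42305 was not called with the replicate block (adjusted p = 0.0678). CR45271 lies at 12296495 to 12297805 on the opposite strand inside CG42700 (2R, 12279771 to 12300795), which went the other way, with 13.2 and 13.6 CPM in A31P males, against 30.2 and 20.5 CPM in attP2 males (Log2FC = -0.92, SE 0.17, adjusted p = 0.0346, and adjusted p = 0.0504 with the block). Whether the counting used strand is not stated, so overlapping pairs are uncertain. CG30428 (2R, 25251927 to 25254535) lies inside the annotated body of CG9380, and CG9380, CG30429 and CG30428 were all higher in A31P (Log2FC = 0.60, 1.21 and 7.16). On 3L, the neighbours CG10725 and CG14109 were both lower, and CG14109 had 35.9 and 37.1 CPM in A31P males, against 78.9 and 80.5 CPM in attP2 males (Log2FC = -1.13, SE 0.11, adjusted p = 0.00117). On 2L, the galactose-binding Lectin-galC1 had 90.8 and 83.3 CPM in A31P males, against 57.7 and 57 CPM in attP2 males (Log2FC = 0.60, SE 0.11, adjusted p = 0.0294), and its neighbour lectin-37Db was higher too (Log2FC = 0.96, adjusted p = 0.0157). Without attP2 replicate 1, several of these neighbours were no longer called. The adjusted p was 0.129 for CG42305, 0.09 for CG17325, 0.0786 for CG42700 (Log2FC = -0.61), 0.0875 for CG9380, 0.0753 for CG30429, 0.0794 for CG10725, 0.0703 for Lectin-galC1 and 0.0639 for lectin-37Db.

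Hemocyte genes were lower in 18 and higher in 5 of 23 tested members (median Log2FC = -0.37), and 3 were called in opposite directions. Among all 13706 tested genes, 6624 were lower and 1.07% were called. NimC1, a phagocytosis receptor of plasmatocytes, had 7.62 and 8.73 CPM in A31P males, against 2.37 and 2.88 CPM in attP2 males (Log2FC = 1.64, SE 0.18, adjusted p = 0.00182). Hml (hemolectin, of clotting) had 159.6 and 181 CPM in A31P males, against 266 and 255 CPM in attP2 males (Log2FC = -0.61, SE 0.11, adjusted p = 0.0289), and the scavenger receptor crq had 63.9 and 66 CPM in A31P males, against 106 and 91 CPM in attP2 males (Log2FC = -0.60, SE 0.09, adjusted p = 0.0158). Without attP2 replicate 1, the median of the list was -0.11 and NimC1 alone stayed called (adjusted p = 0.0134). Hml had a Log2FC of -0.58 there (adjusted p = 0.0753), and crq one of -0.49 (adjusted p = 0.0334), which missed the call by its fold change alone.

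Antimicrobial peptide genes had the lowest median of the 29 lists, -2.96 over 16 tested members, yet none was called. The difference came from 1 library. The 16 members summed to 397 and 394 CPM in A31P males, 1309.6 CPM in attP2 replicate 1 and 395 CPM in attP2 replicate 2. AttC, an attacin induced through the Imd pathway, had 1.23 and 0.823 CPM in A31P males, against 136 and 2.02 CPM in attP2 males. Dpt (diptericin) had 2.99 and 1.92 CPM in A31P males, against 144 and 0.634 CPM in attP2 males, and the Toll target Drs (drosomycin) had 41.9 and 53.2 CPM in A31P males, against 236 and 23.1 CPM in attP2 males. Within lane 7, which held replicate 1 of each group, the list median of the log2 ratio was -3.15, and within lane 8 it was 0.09. The Bomanins and related peptides followed the same pattern, with medians of -1.29 in lane 7 and 0.12 in lane 8, and no call among 20. Without attP2 replicate 1, Dpt and Drs had Log2FC values of 1.94 and 1.04, and the medians were 0.14 for the antimicrobial peptides and 0.10 for the Bomanins. Without attP2 replicate 2, the medians were -4.61 for the antimicrobial peptides and -1.30 for the Bomanins. The sums of the 2 A31P libraries and attP2 replicate 2 differed by less than 3 CPM, of which Anp held 235, 225 and 261 CPM. In the other lines the sums were 376 and 378 CPM (WT) and 441 and 327 CPM (R820W).

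**Figure D3:**
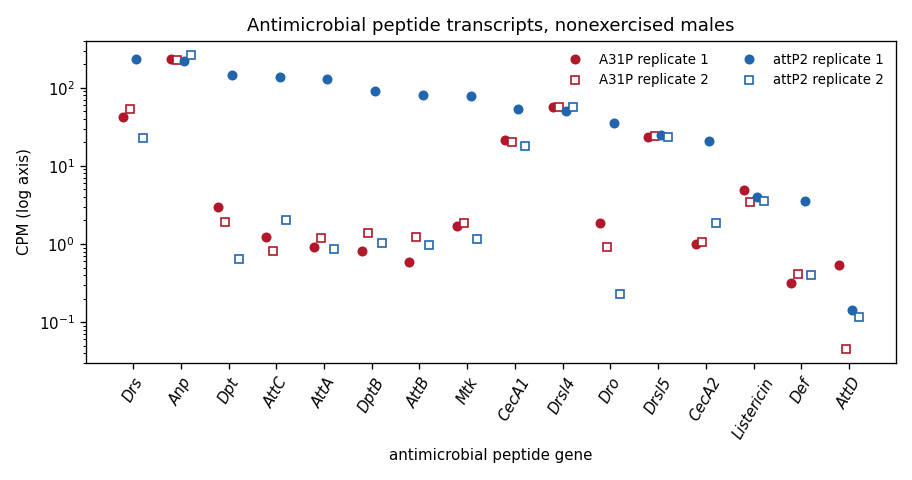
CPM (log axis) of the 16 tested antimicrobial peptide genes in the 2 A31P libraries (red) and the 2 attP2 libraries (blue), ordered by their level in attP2 replicate 1. The filled blue points of attP2 replicate 1 lie above the other 3 libraries for most genes (AttC at 136 CPM), whereas Anp, Drsl4 and Drsl5 are alike in all 4.

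Small nucleolar RNAs, which guide modification of ribosomal and spliceosomal RNA, were lower in A31P for 98 and higher for 10 of 108 tested members, with a median Log2FC of -0.46. The median was -0.74 without A31P replicate 1 and -0.20 without A31P replicate 2. Only 2 were called, both downregulated, a share of 1.85% against 1.07% of all 13706 tested genes, of which 6624 were lower. The snoRNA Psi28S-3342 had 337 and 307 CPM in A31P males, against 452 and 558 CPM in attP2 males (Log2FC = -0.65, SE 0.12, adjusted p = 0.0354). Psi28S-2949, with few counts, had 1.09 and 0.137 CPM in A31P males, against 4.51 and 5.07 CPM in attP2 males (Log2FC = -2.95, SE 0.59, adjusted p = 0.0494, and adjusted p = 0.072 with the replicate block). The 2 lanes differed in size, with medians of -0.12 in lane 7 and -0.74 in lane 8, where attP2 replicate 2 also had the highest 7SL share. With ribosomal and 7SL RNA left out of the library sizes the median was -0.46. Without attP2 replicate 1, Psi28S-3342 remained called and Psi28S-2949 did not, and the reverse held without attP2 replicate 2. The part of the 7SL share in this difference was not tested.

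The remaining lists held few calls or none. Of all 13706 tested genes, 1.07% were called, 7081 were higher and 6624 were lower in A31P. The accessory gland list had 1 call among 30, Acp24A4, a seminal fluid peptide, with 132 and 123 CPM in A31P males, against 182 and 199.8 CPM in attP2 males (Log2FC = -0.58, SE 0.11, adjusted p = 0.0371). Of 29 genes of lipid metabolism, mdy, a diacylglycerol acyltransferase, had 42.8 and 43.6 CPM in A31P males, against 59 and 64.9 CPM in attP2 males (Log2FC = -0.52, SE 0.10, adjusted p = 0.0421). Of 24 nutrient hormone genes, daw, an activin-like ligand, had 42.8 and 38.8 CPM in A31P males, against 64.8 and 60.8 CPM in attP2 males (Log2FC = -0.62, SE 0.12, adjusted p = 0.0393, with adjusted p = 0.0548 with the replicate block and 0.109 without attP2 replicate 1). The call for mdy was lost without attP2 replicate 2, by its fold change (Log2FC = -0.45). Acp24A4, mdy and daw also lost their calls when either A31P library was left out. The same held for CG13492, CG3739 and mesh, described at the end of this paragraph. Photoreceptor genes were lower in 31 of 33 members, with a median Log2FC of -0.16, and testis genes were higher in 36 of 40 (median 0.18), with no call in either list. The 9 female markers and the antimicrobial peptides were high in attP2 replicate 1 as well, and for the testis genes the median was 0.41 in lane 7 and -0.02 in lane 8, and -0.01 without attP2 replicate 1. No member was called among 21 eye pigment, 13 circadian, 27 antioxidant and metallothionein, 38 cuticle, 34 odorant-binding, 39 chemoreceptor, 38 immune recognition, 4 Turandot, 8 Osiris, 7 dosage compensation, 9 female or 15 mitochondrial genome genes. Beside these lists, called genes of high CPM included CG13492, with 577 and 569 CPM in A31P males, against 318 and 348 CPM in attP2 males (Log2FC = 0.78, SE 0.11, adjusted p = 0.00848), CG3739 (Log2FC = 0.90, adjusted p = 0.0366, and 0.13 without attP2 replicate 1) and mesh, a septate junction protein of the gut, with 115 and 123 CPM in A31P males, against 80.7 and 78.8 CPM in attP2 males (Log2FC = 0.58, SE 0.09, adjusted p = 0.0195).

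**Figure D4:**
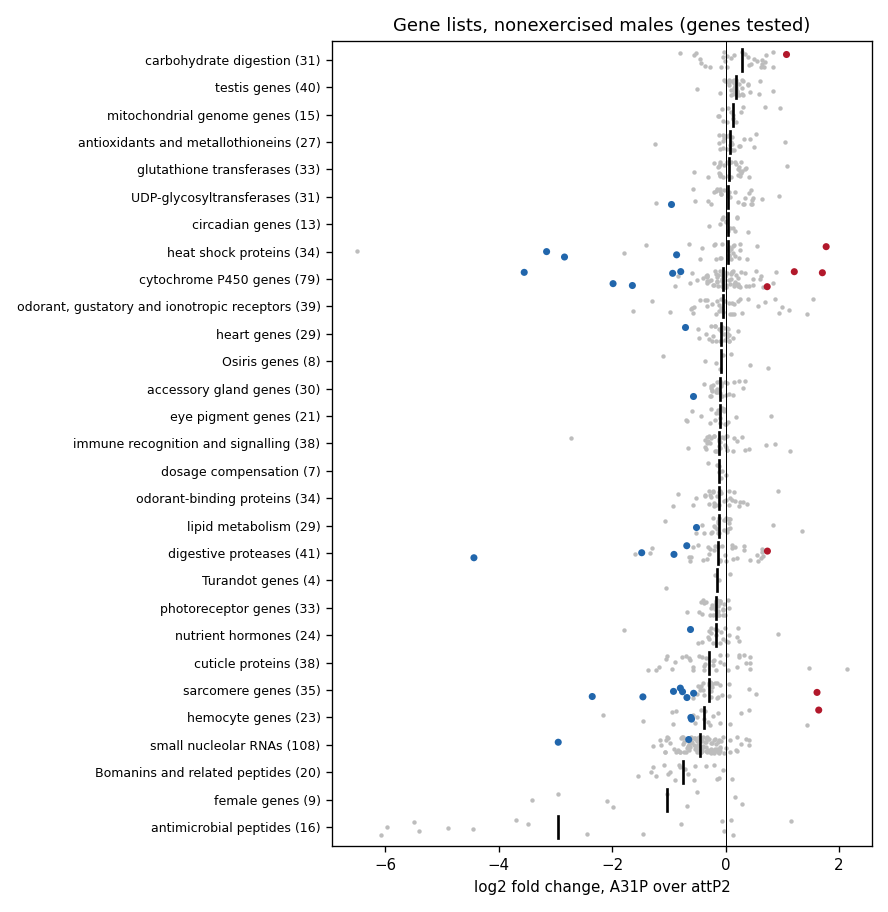
Log2 fold change of A31P over attP2 for each tested member of the 29 gene lists, with the number of tested members in brackets and the list median as a black bar. Red and blue points are called members, higher and lower in A31P, and grey points were not called. The sarcomere and cytochrome P450 lists hold 8 calls each, and the antimicrobial peptide list has the lowest median with no call.

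Genes named in the study for nonexercised males were looked up as well. Mlc1 (myosin light chain) had 453 and 436 CPM in A31P males, against 544 and 543 CPM in attP2 males (Log2FC = -0.29, SE 0.09, adjusted p = 0.15) and Tm1 (tropomyosin) had 464 and 448 CPM in A31P males, against 637 and 604 CPM in attP2 males (Log2FC = -0.44, SE 0.10, adjusted p = 0.0693). Both were lower in A31P without passing the test. The small heat shock gene l(2)efl had 21.6 and 19.8 CPM in A31P males, against 47 and 28.2 CPM in attP2 males (Log2FC = -0.87, SE 0.20, adjusted p = 0.0812), with attP2 replicate 1 above the other 3 libraries. The rhodopsins Rh4, Rh5 and Rh6 had Log2FC values of -0.43, -0.18 and -0.47 (adjusted p = 0.0663, 0.342 and 0.14). The storage protein gene Lsp2 had 340.0 and 419 CPM in A31P males, against 205 and 197 CPM in attP2 males (Log2FC = 0.92, SE 0.21, adjusted p = 0.0801). AkhR, mthl3, tok, MsR1, Cyp4ac1 and CG4335 had Log2FC values of -0.26, -0.25, -0.45, -0.26, -0.25 and -0.24, and none was called.

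A31P males were also compared with the other transgenic lines, using the same A31P libraries. Against WT, 15 genes were called (0.109%), 11 upregulated and 4 downregulated, and 721 had an unadjusted p under 0.05. Against R820W, 65 were called (0.474%), 32 upregulated and 33 downregulated, and 12 without A31P replicate 1 or 7 without A31P replicate 2. Since all 3 comparisons share the A31P libraries, their values are given side by side. Fhos had 396 and 384 CPM in A31P males, 1459.8 and 2322 CPM in R820W males and 301 and 361 CPM in WT males, with a Log2FC of -2.28 against R820W (adjusted p = 0.000926) and 0.24 against WT (adjusted p = 0.967). Hsp22 had 123 and 120.2 CPM in R820W and 6.88 and 9.27 CPM in WT males (Log2FC = -3.84 and 0.08, adjusted p = 0.000297 and 0.991). Cyp6a20 had 87 and 79.3 CPM in R820W and 17.4 and 18.5 CPM in WT males (Log2FC = -1.98 and 0.24, adjusted p = 2.01e-05 and 0.942). For these genes the A31P libraries lay beside the WT libraries. Cyp4p2, with 21.6 and 22.2 CPM in R820W and 16.4 and 14.7 CPM in WT males, and Cyp6a2, with 18.8 and 21.8 CPM in R820W and 22.4 and 24.8 CPM in WT males, differed in A31P from each of the other genotypes (Log2FC = -3.44 and -2.96 for Cyp4p2, 1.88 and 1.66 for Cyp6a2). CG30428 had 10.9 and 10.8 CPM in R820W, as in A31P, and 0.0447 and 0 CPM in WT males. CG17571 had 0.753 and 2.52 CPM in R820W and 1.65 and 1.05 CPM in WT males, so attP2 stood apart from all 3 transgenic lines. CG43195, which was not called against attP2 (adjusted p = 0.136), had 5.13 and 7.27 CPM in A31P males, against 0.0894 and 0.211 CPM in WT males (Log2FC = 5.36, adjusted p = 0.000313).

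The A31P and attP2 lines were then examined in other flies. In exercised males, which share no library with the nonexercised ones, 79 genes were called (0.568%), 26 upregulated and 53 downregulated. Of the 147 genes called in nonexercised males, 37 were called in exercised males too, all in the same direction, which is 25.2% of the 147 and 46.8% of the 79. Of the 147, 142 had the same direction in exercised males (96.6%), against 62.8% of the 13588 genes tested in both. A31P exercised replicate 2 held 5651 CPM of the 9 female markers, against 14.5 CPM in A31P exercised replicate 1 and 9.68 and 11.1 CPM in attP2 exercised males. The 5651 CPM of this library are 30.8% of the mean of nonexercised A31P females, which were run on another flow cell and scaled in a separate fit. Without this library 243 genes were called, and 1693 without A31P exercised replicate 1. The exercised libraries were run on another flow cell, so exercise and flow cell cannot be told apart. In nonexercised females, 11 genes were called (0.0994%), 69 with the replicate block, and 10 of the 11 were among the 147 with the same direction (6.80% of the 147 and 90.9% of the 11). Of the 117 genes also tested in females, 106 had the same direction (90.6%), against 53.2% of the 10703 genes tested in both.

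The genes of the 2R cluster kept their direction in exercised males. Cyp6a20 had 37 and 32.5 CPM in exercised A31P males, against 83.3 and 86.5 CPM in exercised attP2 males (Log2FC = -1.29, adjusted p = 0.00989), and Cyp6a17 had 86.2 and 79.9 CPM in exercised A31P males, against 48.1 and 45.9 CPM in exercised attP2 males (Log2FC = 0.82, adjusted p = 0.0177). Cyp4p2 was lower in A31P in exercised males (Log2FC = -2.77, adjusted p = 0.000825) and in females (Log2FC = -3.77, adjusted p = 8.87e-05), and Cyp6a2 was higher in both (Log2FC = 1.53 and 2.22, adjusted p = 0.0059 and 0.0227). Fhos differed between conditions. It had 316 and 268 CPM in exercised A31P males, against 241 and 397 CPM in exercised attP2 males (Log2FC = -0.13, adjusted p = 0.745), and 215 and 205 CPM in nonexercised A31P females, against 874 and 927 CPM in nonexercised attP2 females (Log2FC = -2.10, adjusted p = 0.0323). Hsp22 had 34.4 and 30.3 CPM in exercised A31P males, against 43.7 and 42.1 CPM in exercised attP2 males. Act88F had 47.5 and 35.2 CPM in exercised A31P males, against 41 and 53.8 CPM in exercised attP2 males (Log2FC = -0.20, adjusted p = 0.589). In the test of the difference itself, 4 of 14090 genes were called (0.0284%), Fhos, Hsp22, CG9281 and CR43684, and 1208 had an unadjusted p under 0.05. For Fhos and Hsp22 the Log2FC of A31P over attP2 was higher in exercised males by 2.18 and 2.70 (adjusted p = 0.0492 for each, and 0.0545 for Fhos and 0.0462 for Hsp22 with the replicate block). The lower level in A31P was thus less marked there, with Log2FC values of -0.13 and -0.41 against -2.35 and -3.15 in nonexercised males. For Act88F the difference was 1.21 without a call (adjusted p = 0.367). No gene was called (edgeR) without A31P exercised replicate 2, where 791 had an unadjusted p under 0.05, and 911 genes were called without A31P exercised replicate 1.

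**Figure D5:**
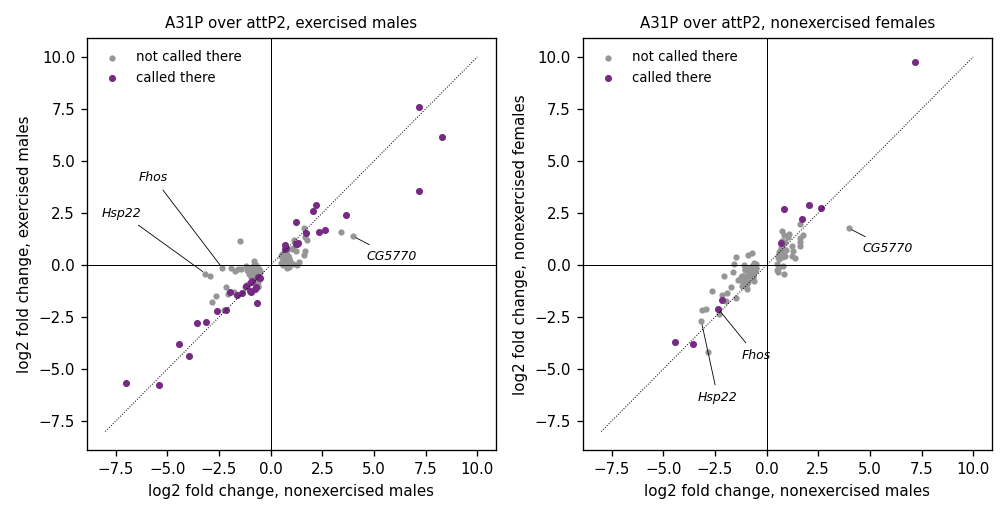
Log2 fold change of A31P over attP2 for the 147 genes called in nonexercised males (horizontal axis), against the value in exercised males (left, 147 genes) and nonexercised females (right, 117 genes). Purple points were called in the second group as well (37 and 10 genes), and the dotted line marks equal values. Fhos and Hsp22 lie near 0 in exercised males and below 0 in females.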

How the data were processed

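RNA was rRNA-depleted and sequenced as directional single-read libraries. According to the labels and the study's methods, the authors trimmed reads with cutadapt, removed rRNA reads with TopHat and counted the rest per gene with CLC Genomics Workbench 11 against release 6.13 of the fly genome, and deposited whole-number counts. The deposited table of counts still held rRNA and 7SL genes, and strand use in counting is not stated. The table had 17490 genes, of which 17216 matched a current symbol. The deposited counts were fitted in R 4.3.3 with edgeR 4.0.16 (filterByExpr with a minimum count of 10, TMM scaling, quasi-likelihood test, two-sided, Benjamini-Hochberg adjustment), with the 4 genotypes of nonexercised males in 1 fit. Exercised males and nonexercised females were fitted separately, and the difference between exercised and nonexercised males was tested as an interaction over all males. Thresholds followed the study (adjusted p under 0.05, Log2FC beyond 0.5). CPM values are counts scaled to each library's TMM-adjusted size. The script was tested on simulated data.

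The named genes were 15 called genes at each end of the Log2FC range, the 8 of highest CPM in each direction, called and high-CPM members of gene lists, called genes within 10 kb of each other, genes the study names for males, and the 5 largest changes in the other male comparisons. The genes and lists were chosen with earlier results of these data known. Name patterns that also caught cyclophilins, a glucosyltransferase of the endoplasmic reticulum and several genes not specific to testis were narrowed afterwards, and Msr-110, taken at first for MsR1, was replaced by it and left out of the photoreceptor list.

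The labels put replicate 1 of the nonexercised flies on lane 7 and replicate 2 on lane 8, so the number marks a shared lane. Deviations from the group means correlated between same-numbered libraries by -0.0846 to 0.068 over pairs of genotypes. Alternatives were RLE size factors, DESeq2 1.42.0, the likelihood ratio test, no filter, library sizes without rRNA and 7SL, the replicate block, the compared groups alone and each library left out, and values within each lane (log2 ratios of CPM plus 0.5) were added after seeing the data. Intervals and floors cover counting error only.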

Additional observations from a re-analysis of the deposited data

Results flagged for a closer look

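For 4 genes the A31P effect differed between exercised and nonexercised males in the test of the difference itself (edgeR, adjusted p = 0.0492 for each). The Log2FC of A31P over attP2 was higher in exercised than in nonexercised males by 2.18 for Fhos, 2.70 for Hsp22 and 0.76 for CG9281, and the difference for CR43684 was -1.20. CG9281 had 188 and 207 CPM in exercised A31P males, against 194 and 203 CPM in exercised attP2 males, and 77.9 and 70.2 CPM in nonexercised A31P males, against 130.2 and 129.9 CPM in nonexercised attP2 males. CR43684 had 13 and 11.9 CPM in exercised A31P males, against 43.2 and 44.8 CPM in exercised attP2 males, and 25.7 and 27.3 CPM in nonexercised A31P males, against 40.7 and 43.6 CPM in nonexercised attP2 males. With the replicate block, Fhos and CR43684 were no longer called (adjusted p = 0.0545 each) and Hsp22 and CG9281 were (adjusted p = 0.0462 each). With the compared groups alone, none of these genes was called (adjusted p = 0.126 to 0.342). The calls also depended on single libraries, as described below. Without A31P exercised replicate 2, which was high in female markers, the differences were 2.30 for Fhos, 2.80 for Hsp22, 0.70 for CG9281 and -1.12 for CR43684. The call of CR43684 in nonexercised males was lost with the block (adjusted p = 0.0503) and without attP2 replicate 1 (adjusted p = 0.0501). Exercise and flow cell cannot be told apart in these values.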

How the results depend on the processing

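The 147 calls between A31P and attP2 nonexercised males became 293 with DESeq2, 444 with the likelihood ratio test, 230 without a filter, 72 with the compared groups alone and 62 with a Log2FC beyond 1, and 28 to 1124 with single libraries left out. With the replicate block they were 140, and 123 of the 147 genes were among them. In exercised males, the 79 calls became 306 with DESeq2, 282 with the likelihood ratio test and 14 with the groups alone, and 8 to 1693 with single libraries left out (9 without attP2 replicate 1 and 8 without attP2 replicate 2). The 4 calls of the difference between exercised and nonexercised males became 77, 85 and 0 under these settings, and 0 to 911 with single libraries left out. They were 0 without either A31P nonexercised library, attP2 exercised replicate 1 or A31P exercised replicate 2, 1 without attP2 nonexercised replicate 1 or attP2 exercised replicate 2, and 45 without attP2 nonexercised replicate 2. Against WT, the 15 calls became 53 with DESeq2, 76 with the likelihood ratio test, 23 without a filter and 106 with the groups alone, and 7 to 11 with single libraries left out. Against R820W, the 65 calls became 158 with DESeq2, 200 with the likelihood ratio test and 106 without a filter, and 7 to 40 with single libraries left out. In females, the 11 calls became 127 with DESeq2, 153 with the likelihood ratio test, 63 without a filter, 69 with the replicate block and 151 with the groups alone, and 1 to 8 with single libraries left out. Without single libraries, Log2FC values ran over -5.87 to 1.94 for Dpt, -2.31 to 1.04 for Drs and -0.181 to 0.0617 for Anp, none of them called in the comparison. The called genes named in the text kept their direction against attP2 in every fit, within-lane values aside. This does not extend to every uncalled gene named. The heart marker mid, with overlapping groups, had 2.90 and 1.87 CPM in A31P males, against 2.04 and 2.54 CPM in attP2 males. The median of all genes moved by less than 0.1 on the log2 scale under every scaling. With 2 libraries per group, the spread rests on all 4 genotypes, and a lone library was assumed to vary like the others. The causes of these shifts were not tested.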
